A study of Homo sapiens and Mus musculus with 41 samples.

Results

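Matrix metalloproteinases (MMP), the ADAM and ADAMTS proteases and the tissue inhibitors of metalloproteinases (TIMP) were followed through tumour cells of 4 models of metastasis to the leptomeninges. A gene was a member when its symbol was MMP, ADAM or ADAMTS followed only by a number, or TIMP1 to TIMP4, in either case of letters. The rule selected 67 of 23368 genes in each of the 3 human tables and 70 of 23337 genes in the mouse table, which makes 271 of 93441 rows. A member was tested when it reached a normalized count of 10 in at least 2 libraries of its model, which 48 members did in HCC1954, 43 in MDA-MB-231, 39 in PC9 and 39 in LLC. Another 9 members in HCC1954, 3 in MDA-MB-231, 11 in PC9 and 8 in LLC were at 0 in every library. The other untested members stayed below the filter.

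The models were HCC1954, a human breast carcinoma line labelled with raised HER2, MDA-MB-231, a human breast carcinoma line labelled as lacking ER, PR and HER2, PC9, a human lung adenocarcinoma line labelled with raised EGFR, and LLC, the Lewis lung carcinoma of the C57/B6 mouse. Polyadenylated RNA was sequenced from 41 libraries at 4 stages: the leptomeningeal derivative (Lep), the brain metastatic derivative (BrM), an intermediate derivative (Int) and the parental line (Par). HCC1954 had 3 Lep, 2 BrM, 2 Int and 3 Par libraries, MDA-MB-231 and PC9 each had 2 Lep, 3 BrM, 2 Int and 3 Par libraries, and LLC had 3 Lep, 3 BrM, 2 Int and 3 Par libraries. The parental lines stably express GFP. Cells washed out of the leptomeningeal space of tumour-bearing mice were cultured until all expressed GFP and then passaged. Values of the parental lines and of these cells are thus those of cultured cells. The labels do not say how BrM cells were made, and no group was treated. The design text describes Par replicates as technical and Int and Lep replicates as a mix of biological and technical ones. It does not describe the BrM replicates. The p-values thus measure the spread between these libraries.

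MMPs are zinc endopeptidases that are secreted or held at the cell surface and cut collagens, laminins, proteoglycans and other matrix proteins. ADAMs are membrane proteins, several of which shed growth factors, cytokines and receptors from the cell surface, while the secreted ADAMTS proteases trim procollagens and cut proteoglycans. TIMPs bind the active site of these enzymes and block them, and TIMP3 is held in the matrix and also inhibits several ADAM and ADAMTS proteases.

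Several of the MMPs that differed between stages of HCC1954 lie next to each other on human chromosome 11. In the RefSeq annotation the 9 protein-coding genes of this stretch run in the order MMP7, MMP20, MMP27, MMP8, MMP10, MMP1, MMP3, MMP12 and MMP13. The RefSeq promoter table (build GRCh38.p14) matched 38 of the 67 human members and 5 of these 9 genes. The 150 bases before the start of those 5 genes are printed to set neighbours that changed in HCC1954 (MMP7 and MMP10) beside neighbours that were below the filter there (MMP20, MMP27 and MMP8). All 5 genes lie on the minus strand and are printed 5′ to 3′ on it, and capitals mark matches to TGANTCA, which reads alike on both strands. TGANTCA includes TGAGTCA, the core of sites bound by AP-1 transcription factors, and looser matches such as TGAATCA. The match in MMP7 is TGAGTCA, and those in MMP10 and MMP20 are TGAATCA.
MMP7 (chr11:102530748-102530897): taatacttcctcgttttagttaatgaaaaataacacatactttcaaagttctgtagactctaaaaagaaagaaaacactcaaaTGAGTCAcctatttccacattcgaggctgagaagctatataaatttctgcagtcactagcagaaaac
MMP10 (chr11:102780629-102780778): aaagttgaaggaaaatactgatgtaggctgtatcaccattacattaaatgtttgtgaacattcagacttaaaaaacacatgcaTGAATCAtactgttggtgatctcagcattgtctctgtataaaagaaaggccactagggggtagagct
MMP20 (chr11:102625333-102625482): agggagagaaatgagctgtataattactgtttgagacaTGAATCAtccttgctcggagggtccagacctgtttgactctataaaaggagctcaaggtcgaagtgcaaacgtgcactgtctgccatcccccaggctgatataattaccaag
MMP27 (chr11:102705770-102705919): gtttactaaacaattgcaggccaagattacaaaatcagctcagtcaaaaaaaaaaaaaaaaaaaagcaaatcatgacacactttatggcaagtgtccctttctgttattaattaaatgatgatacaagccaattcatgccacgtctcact
MMP8 (chr11:102724955-102725104): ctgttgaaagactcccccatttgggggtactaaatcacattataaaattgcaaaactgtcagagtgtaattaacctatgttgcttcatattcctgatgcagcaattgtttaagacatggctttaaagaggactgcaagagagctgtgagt

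TGANTCA began 67 bases before the start in MMP7 and in MMP10 and 112 bases before it in MMP20, and had no match in the printed bases of MMP27 and MMP8. In the 250 bases before the start, 6.57% of all 35116 promoters in the table held TGANTCA, and 4.2% held TGAGTCA in either orientation. Among the 39 promoters of the 38 matched members, 4 held TGANTCA (those of MMP7, MMP10, MMP20 and ADAMTS12) and 1 held TGAGTCA (that of MMP7). A match describes letters only.

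Values are the authors' normalized counts, which are reads divided by 1 size factor per library, and levels are compared between genes only per kilobase of the longest annotated transcript. A member was called, and is said to have risen or fallen, when its Benjamini-Hochberg adjusted p over all genes tested was below 0.05 and its log2 fold change on the log2(value + 1) scale was at least 1 in size (limma, two-sided). Fold changes carry their standard error, and means their SD over libraries. The comparisons of Lep, BrM and Int with Par share the Par libraries. The plot of fold changes for all tested members shows the 4 models side by side.

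**Figure D1:**
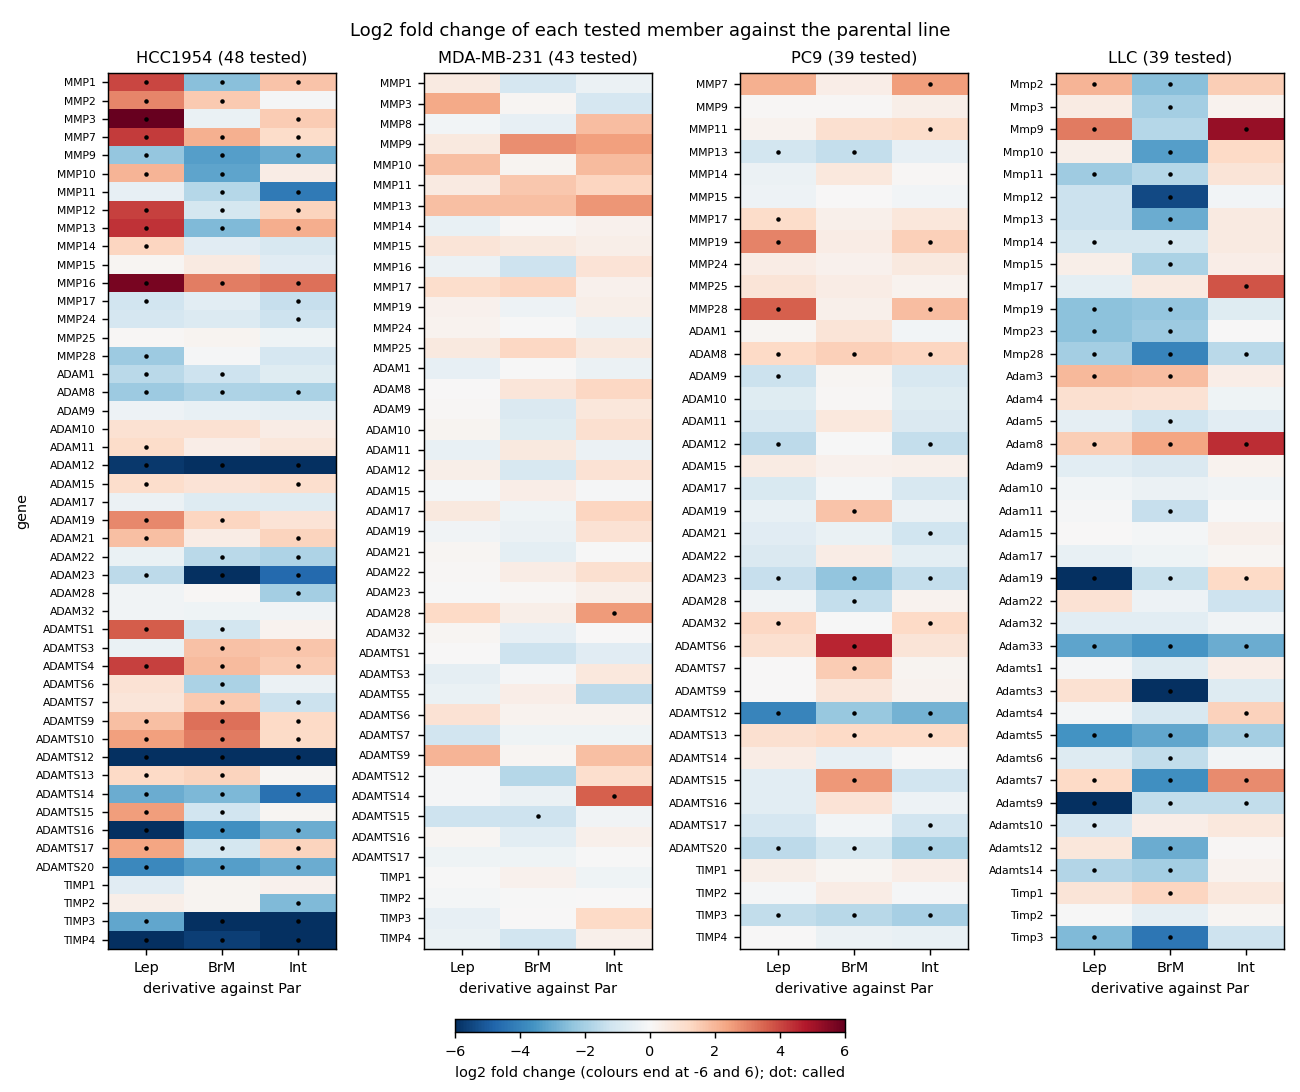
Log2 fold change of every tested member in Lep, BrM and Int against Par, 1 panel per model and 1 row per gene, on a colour scale that ends at -6 and 6, with a dot on each called value. HCC1954 and LLC carry most of the dots, and MDA-MB-231 has 3 in all.

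Library depths were 25330801 to 67367833 reads in HCC1954, 23508951 to 110830546 in MDA-MB-231, 16792027 to 38432963 in PC9 and 18029707 to 67939274 in LLC. The MDA-MB-231 Par libraries stood apart from each other: across genes, the rank correlation between transcript length and a library's deviation from the mean was 0.47, -0.35 and -0.45 in Par replicates 1 to 3. In PC9 the same correlation followed the stages, being below 0 in every Lep and Int library (-0.47 to -0.37) and above 0 in every BrM and Par library (0.27 to 0.40), so a length-related bias and stage cannot be told apart there. The genes behind the labels were read within each model, which cannot show whether a level is raised against other lines. In MDA-MB-231, labelled as lacking ER, PR and HER2, ERBB2 averaged 3179 in Lep, 3603 in BrM, 3296 in Int and 3303 in Par. There ESR1 averaged 6.54, 16.3, 3.51 and 3.37, and PGR 1.12, 46.5, 13.9 and 16.6, in the same order. ERBB2 was 144300 to 150600 in HCC1954 Lep, 394800 to 398600 in BrM, 152200 to 153300 in Int and 57460 to 59590 in Par. EGFR in PC9 was 1527 to 1928 in Lep, 11720 to 15120 in BrM, 1595 to 1867 in Int and 9147 to 9752 in Par. LLC expressed Krt18 at every stage, while the epithelial marker Epcam was at 0 in BrM and Int and averaged 0.85 in Lep and 0.63 in Par.

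In HCC1954, members changed more often than genes at large. In Lep against Par, 20 of 48 tested members rose and 13 fell, while 13% of the 15561 genes tested rose and 13.8% fell. The members' median log2 fold change was 0.22 and that of all genes -0.02. By family, 9 of 16 tested MMPs rose and 3 fell, 7 of 14 ADAMTS genes rose and 4 fell, 4 of 14 ADAMs rose and 4 fell, and 2 of 4 TIMPs fell. In these bulk samples fewer cells of a kind and less RNA per cell cannot be told apart.

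The collagenases of HCC1954 differed between the derivatives in both directions. MMP13, a collagenase with broad action on fibrillar collagens, had 25520, 23270 and 21210 normalized counts in Lep, 172.2 and 196.2 in BrM and 2548 and 10660 in Int, against 1450, 1032 and 1040 in Par. Every Lep library was above, and both BrM libraries below, all the others. MMP13 rose by 4.33 ± 0.35 on the log2 scale in Lep (limma adjusted p = 6.2e-08) and by 2.17 ± 0.39 in Int (0.00021), and its change in BrM was -2.65 ± 0.39 (3.3e-05). Per kilobase, MMP13 was the most abundant member in Lep, at 8592 normalized counts, ahead of ADAM15 at 4687 and ADAM9 at 3034. MMP1, interstitial collagenase, had 2207, 2088 and 1889 in Lep, 20.7 and 21.9 in BrM and 203.8 and 851.3 in Int, against 205.1, 95.98 and 106.7 in Par. It rose by 3.99 ± 0.39 in Lep (limma adjusted p = 4.5e-07) and fell by 2.53 on the log2 scale in BrM (0.00013). In Int it was called higher (1.69 ± 0.44, limma adjusted p = 0.0032), although one Int library lay within the range of Par. MMP8, the neutrophil collagenase, was below the filter, at 1.17, 1.08 and 1.25 in Lep and at 0 in every Par library.

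The stromelysins MMP3 and MMP10, the matrilysin MMP7 and the macrophage elastase MMP12 also rose in HCC1954 Lep cells. MMP3, which can activate other proMMPs, had 3025, 2641 and 2395 in Lep, 19.4 and 24 in BrM and 28.4 and 260.7 in Int, against 38.4, 22.5 and 28.99 in Par. Lep stood above every other library, at 6.47 ± 0.54 over Par (limma adjusted p = 8e-08) and 6.89 ± 0.6 over BrM (2.6e-07). MMP7, which lacks the hemopexin domain, had 1140, 1202 and 940.1 in Lep, 242.1 and 269.2 in BrM and 93.7 and 174.7 in Int, against 72.4, 46.2 and 59.3 in Par. It rose in all 3 derivatives, by 4.2 ± 0.2 in Lep, 2.11 ± 0.23 in BrM and 1.12 ± 0.23 in Int, with limma adjusted p of 2.8e-10, 1.4e-06 and 0.00053. MMP10 averaged 68.9 ± 4.52 in Lep against 15.8 ± 1.17 in Par, and MMP12 76.1 ± 10.01 in Lep against 3.64 ± 1.48 in Par. The rises in Lep were 2.05 and 4.09 on the log2 scale, and in BrM each of these genes had 2 reads over both libraries.

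The 6 tested genes of the chromosome 11 stretch thus rose in HCC1954 Lep cells, a grouping made after their values were seen. The 2 Int libraries differed widely in them. Without Int replicate 2 the Int change against Par was -0.04 for MMP3, 0.67 for MMP1, 0.68 for MMP7 and 1.14 for MMP13, and of these 4 only MMP13 remained called. Without Int replicate 1 the values were 3.11 for MMP3, 2.72 for MMP1 and 3.20 for MMP13. MMP20, an enamel protease, had 4.69, 5.41 and 1.25 in Lep and 1.097, 0 and 0 in Par, and MMP27 was at 0 in every Lep library.

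**Figure D2:**
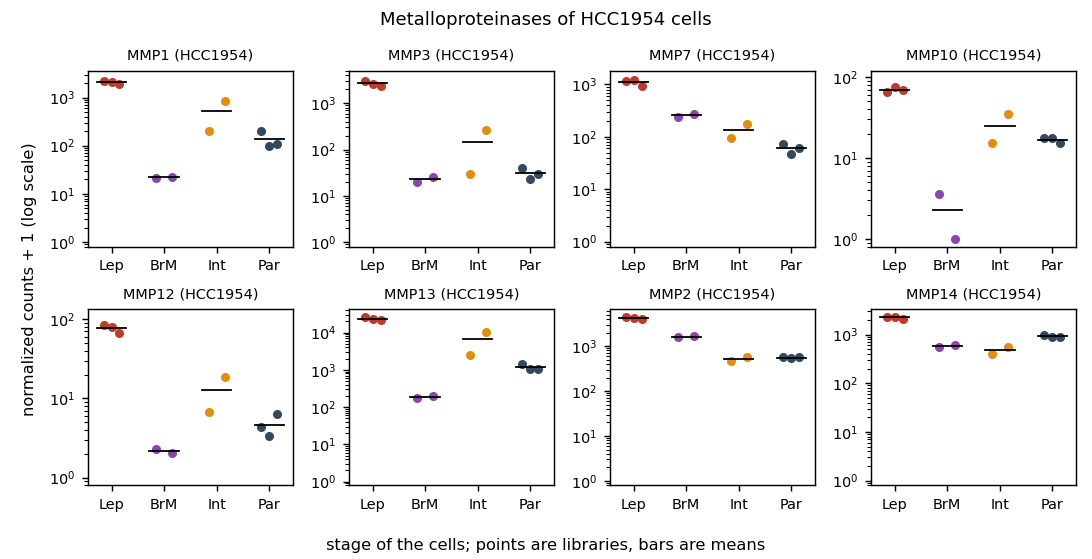
Normalized counts + 1 on a log axis in each HCC1954 library for 8 MMP genes, with points for libraries and bars for means of Lep, BrM, Int and Par. Lep is highest for all 8 genes, and the 2 Int points lie far apart for MMP1, MMP3, MMP12 and MMP13.

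The gelatinases of HCC1954 went opposite ways in Lep. MMP2, which cuts basement membrane collagen and gelatin, had 4557, 4296 and 3968 in Lep, 1608 and 1645 in BrM and 464 and 578 in Int, against 558.3, 533.2 and 557.4 in Par. It rose in Lep (2.95 ± 0.07, limma adjusted p = 3.1e-13) and in BrM (1.56 ± 0.08, 6.4e-10), neither overlapping Par, and the Int libraries lay on both sides of Par. MMP9, the other gelatinase, averaged 17.6 ± 3.11 in Lep, 8.18 ± 1.24 in BrM and 10.5 ± 0.03 in Int, against 90.2 ± 7.66 in Par, and fell in all 3 derivatives, by 2.31 on the log2 scale in Lep.

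Among membrane-type MMPs, MMP14, which cuts collagen at the cell surface and activates proMMP2, had 2325, 2332 and 2118 in Lep, 541.2 and 597.8 in BrM and 394.5 and 557.6 in Int, against 966.4, 900.6 and 880.2 in Par. Lep lay above and the other derivatives below Par, and the rise in Lep was 1.3 ± 0.1 (limma adjusted p = 2.8e-08). MMP16 had 58.6, 44.3 and 52.5 in Lep and 0 in all 3 Par libraries, which makes Lep at least 14.4-fold higher when each Par library is set at 3 reads. MMP16 was also called higher in BrM, at 5.18 and 10.4, and in Int, at 22.65 and 3.15. MMP28, epilysin, fell in Lep, to 39.5 ± 6.01 against 184.6 ± 16.6 in Par (-2.2 ± 0.17, limma adjusted p = 3e-08). MMP24 fell in Int, to 110.4 ± 7.75 against 264.2 ± 36.4 in Par (-1.24 ± 0.15, limma adjusted p = 5.3e-06), and with quantile normalization, which ended the call, the change was -0.78.

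The ADAM genes of HCC1954 split by member. ADAM19, meltrin beta, had 6349, 5875 and 5674 in Lep, 1955 and 2097 in BrM and 1309 and 1527 in Int, against 869.9, 760.8 and 815.7 in Par. All derivative libraries lay above Par, and ADAM19 rose by 2.87 ± 0.06 in Lep and 1.31 ± 0.07 in BrM (limma adjusted p = 1.7e-13 and 1.4e-09). ADAM15, a membrane ADAM with an integrin-binding disintegrin domain, averaged 21130 ± 232.1 in Lep and 20450 ± 948.1 in Int, against 10180 ± 228.6 in Par. Its calls lay at the fold threshold (1.05 ± 0.03 in Lep and 1.01 ± 0.03 in Int), and quantile normalization ended both, at 0.92 and 0.94. The Int call also ended with edgeR (0.99), the replicate block (0.99), the length correction (0.98) and without Int replicate 2 (0.96) or Par replicate 3 (0.99). ADAM12, meltrin alpha, had 12.9, 12.97 and 5 in Lep, 5.18 and 3.13 in BrM and 4.21 and 4.196 in Int, against 553.9, 583 and 633.8 in Par. It fell in all 3, with log2 fold changes of -5.81 in Lep, -6.87 in BrM and -6.83 in Int and limma adjusted p of 6.5e-10, 5.6e-10 and 7.8e-10.

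ADAM23 and ADAM22, ADAMs without protease activity that bind LGI proteins in the nervous system, were also lower. ADAM23 had 249.8, 215.2 and 237.5 in Lep, 3.88 and 5.22 in BrM and 17.4 and 39.3 in Int, against 698.7, 695.6 and 677.3 in Par. It fell in all 3, with log2 fold changes of -1.56 in Lep, -6.97 in BrM and -4.67 in Int and limma adjusted p of 1.9e-05, 2.3e-11 and 1.4e-09. ADAM22 fell in BrM and Int, to 209.9 ± 20.4 and 180.3 ± 14.3 against 652.5 ± 19.3 in Par, and was 490.7 ± 14.1 in Lep, where it was not called. ADAM8, a sheddase known from leukocytes, fell to 118.5 ± 7.01 in Lep, 148.8 ± 42.2 in BrM and 141.9 ± 15.9 in Int, against 532.8 ± 40.2 in Par. The gene listed as ADAM1 fell to 40.6 ± 10.4 in Lep and 51.96 ± 7.08 in BrM, against 122.8 ± 13.6 in Par, and with quantile normalization the BrM change of -1.23 was -0.86, under the fold threshold. The broad sheddases were not called in Lep: ADAM10 averaged 16180 ± 782.6 in Lep and 8647 ± 147.5 in Par, ADAM17 4167 ± 125.3 and 5334 ± 72.5, and ADAM9 11650 ± 490.4 and 14310 ± 270.7.

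The ADAMTS genes of HCC1954 moved in both directions in Lep. ADAMTS15, an aggrecanase, had 2825, 2818 and 2561 in Lep, 214.9 and 229.5 in BrM and 369.7 and 734.9 in Int, against 524.3, 456.2 and 482.3 in Par. Lep lay above every other library (2.49 ± 0.17 over Par, limma adjusted p = 1.1e-08) and BrM below Par (-1.13 ± 0.19, 0.00011), though with quantile normalization the BrM change was -0.93. ADAMTS1, which cuts versican and aggrecan, had 266.2, 246.5 and 232.5 in Lep and 7.77 and 9.39 in BrM, against 16.4, 15.4 and 27.7 in Par, a rise of 3.63 ± 0.28 in Lep (limma adjusted p = 4.3e-08). ADAMTS9, another versicanase, averaged 132.3 ± 16.4 in Lep and 372.1 ± 22.7 in BrM, against 37.3 ± 3.78 in Par, and rose by 1.8 ± 0.17 in Lep and 3.29 ± 0.19 in BrM (limma adjusted p = 3e-07 and 2.5e-09). ADAMTS9 also rose in Int, to 89.05 ± 29.1. ADAMTS20, a low gene named after its values were seen, fell to 1.17 ± 0.08 in Lep against 31.3 ± 5.07 in Par. It also fell in BrM and Int, to 4.7 ± 6.64 and 3.15 ± 1.48.

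Other ADAMTS genes of HCC1954 were nearly absent from 1 or more derivatives. ADAMTS12 was at 0 in all 3 Lep and both BrM libraries and had 251.2, 226.3 and 216.1 in Par, so it was at least 66-fold lower in Lep and in BrM when each library at 0 is set at 3 reads. It also fell in Int, with 1 read over both libraries. ADAMTS16 had 2 reads over the 3 Lep libraries, and its Par mean of 216.3 was 288 times the Lep mean, with a counting interval of 79.7 to 2380 (exact Poisson, 95%). ADAMTS16 also fell in BrM and Int, to 15.6 ± 0.08 and 26.02 ± 0.45. ADAMTS13, the protease of von Willebrand factor, rose to 149.1 ± 6.998 in Lep and 164.5 ± 9.31 in BrM, against 64.8 ± 3.39 in Par, and ADAMTS17 to 164.6 ± 24.5 in Lep against 31.1 ± 7.04. ADAMTS10 rose in all 3 derivatives. It averaged 98.75 ± 4.48 in Lep, 151.6 ± 3.92 in BrM and 38.4 ± 7.32 in Int, against 17.6 ± 6.15 in Par. In BrM, ADAMTS7 rose to 128 ± 3.93 against 42.8 ± 4.53 in Par. ADAMTS3, a procollagen N-proteinase, rose in BrM to 104.5 ± 1.28 against 30.7 ± 1.01 in Par, and averaged 98.8 ± 13.7 in Int.

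The inhibitors of HCC1954 were lower or under the fold threshold in Lep. TIMP3 had 670.7, 668.2 and 590.1 in Lep, 18.1 and 35.5 in BrM and 8.43 and 12.6 in Int, against 5627, 5295 and 5797 in Par. No derivative library came near Par, and TIMP3 fell, with log2 fold changes of -3.12 in Lep, -7.72 in BrM and -8.94 in Int (limma adjusted p = 3e-09, 2.1e-12 and 9.3e-13). TIMP4 was at 0 in all 3 Lep libraries, against 190.9, 171.8 and 156.8 in Par, and so at least 49.4-fold lower at 3 reads per library. It had 1.29 and 4.17 in BrM and 3 reads over both Int libraries. TIMP2, which with MMP14 also takes part in the activation of proMMP2, had 9353, 9040 and 8536 in Lep, 7533 and 8156 in BrM and 958 and 1288 in Int, against 7317, 6773 and 7138 in Par. It was called in Int (-2.67 ± 0.09, limma adjusted p = 1.8e-11) and in no other derivative against Par. TIMP1, a widely expressed inhibitor, had 818.5, 878 and 831.3 in Lep, 1484 and 1570 in BrM and 1864 and 1374 in Int, against 1365, 1352 and 1312 in Par. Lep lay below all other libraries, but the change of -0.67 ± 0.08 was under the fold threshold.

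**Figure D3:**
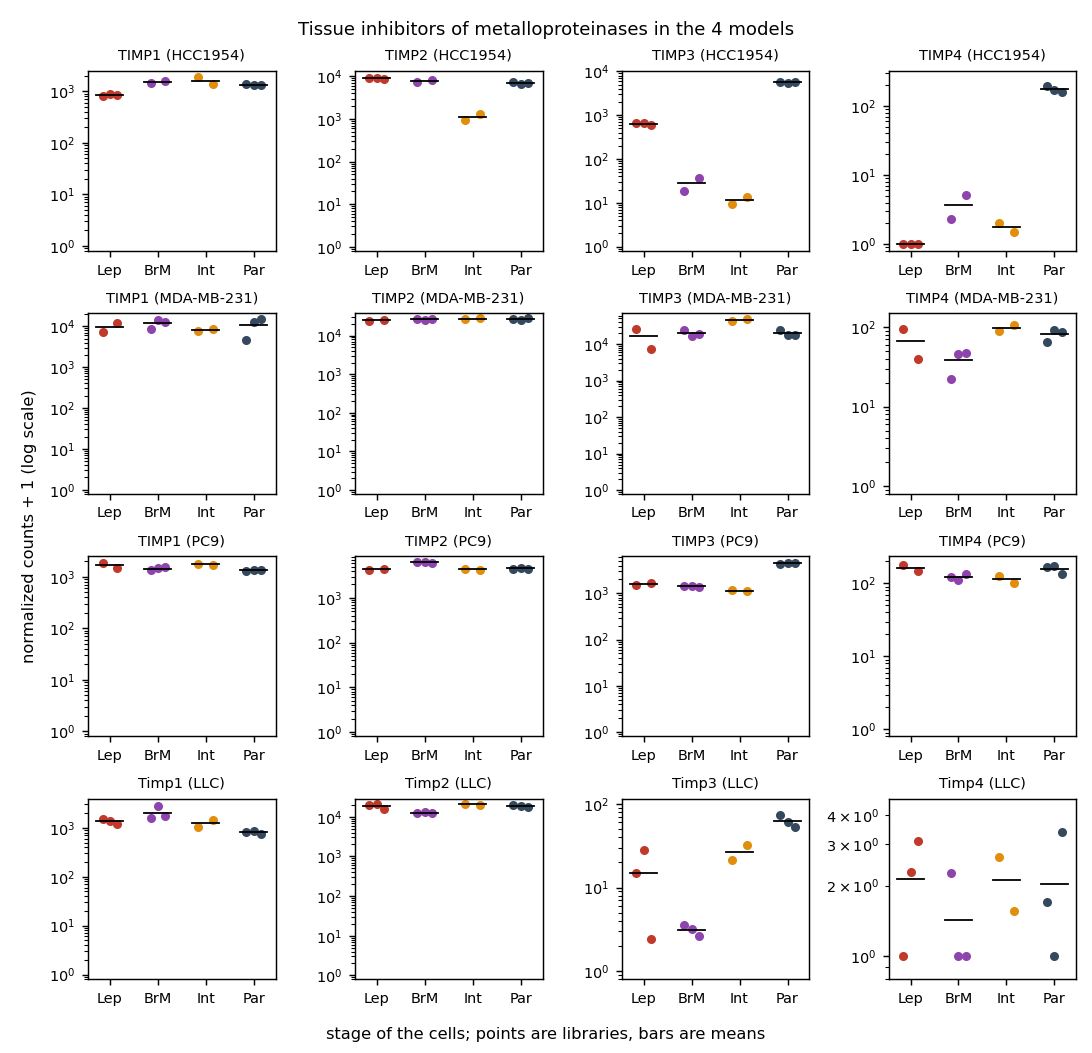
Normalized counts + 1 on log axes in each library for TIMP1 to TIMP4 in the 4 models, with points for libraries and bars for means of Lep, BrM, Int and Par. TIMP3 is lower in every derivative library of HCC1954, PC9 and LLC than in any Par library of the same model.

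In the Int and BrM cells of HCC1954 more members fell than rose, in Int not so under quantile normalization. In Int against Par 13 of 48 members rose and 17 fell, beside 6.6% and 14.6% of all genes, with a median of -0.31 (all genes 0.01). Under quantile normalization, which moved the all-gene median to 0.12, 15 rose and 14 fell. In BrM against Par 10 rose and 21 fell, beside 9.63% and 14% of all genes (23.6% in all), with a median of -0.65 (all genes -0.02), and 10 rose and 16 fell under quantile normalization. Compared with Int, 25 members were higher and 3 lower in Lep, beside 11.7% and 3.47% of all genes (21 and 5 under quantile normalization). Compared with BrM, 22 were higher and 5 lower in Lep, beside 10.5% and 6.54%. Over BrM, the Lep cells were higher in MMP13 (6.98 ± 0.39), MMP1 (6.53 ± 0.44), ADAM23 (5.41 ± 0.25), TIMP3 (4.61 ± 0.21) and ADAMTS15 (3.61 ± 0.19). They were lower in MMP28 (-2.15 ± 0.19) and ADAMTS9 (-1.49 ± 0.19).

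Other genes of pericellular proteolysis were read from a list of 31 genes, 29 of them tested in HCC1954. In Lep against Par 9 rose and 3 fell, beside 13% and 13.8% of all genes. PLAT, tissue plasminogen activator, was 52570 ± 5829 in Lep and 2864 ± 178.3 in Par (4.19 ± 0.09, limma adjusted p = 7.9e-14), and CTSB, cathepsin B, 97250 ± 4384 in Lep and 14980 ± 759.8 in Par (2.70 ± 0.08, 1.9e-12). RECK, a membrane-anchored MMP inhibitor, rose to 310.5 ± 28.8 in Lep against 120.4 ± 17.3 in Par. The protease inhibitors TFPI2 and SERPINE2 fell, to 21.9 ± 6.52 and 1560 ± 1.67 in Lep against 619.9 ± 42.9 and 13630 ± 374.5 in Par. In BrM 2 rose and 7 fell, beside 9.63% and 14% of all genes. In Int 2 rose and 8 fell, beside 6.6% and 14.6%. FURIN, a convertase that activates MMP14 and several ADAMs, fell to 1012 ± 104.3 in BrM and 1110 ± 150.7 in Int against 4015 ± 83.03 in Par.

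In MDA-MB-231 a few members had very high levels, and few were called. MMP1 had 102200 and 165000 normalized counts in Lep, 27770, 62060 and 48760 in BrM and 45400 and 106100 in Int, against 54190, 117200 and 112200 in Par. Lep overlapped Par and lay above all BrM libraries, without passing the threshold there (limma adjusted p = 0.14). Per kilobase over the 4 stages, MMP1 averaged 44420, MMP14 12510, TIMP1 9169, TIMP2 7191 and TIMP3 5525. MMP14 had 29360 and 38990 in Lep, 35220, 60300 and 50930 in BrM and 55840 and 54590 in Int, against 30100, 46780 and 68830 in Par. The Par libraries alone spanned a wide range, and MMP14 was called in no comparison.

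Between Lep and Par no member of 43 was called by limma (beside 0.0662% of 15106 genes, 0.0199% higher and 0.0463% lower), while 4 were higher and 2 lower at p under 0.05 before adjustment, 0 calls by edgeR and 2 by DESeq2. ADAMTS9, named after its values were seen, had 2031 and 2044 in Lep against 747.7, 742.3 and 223.2 in Par, without overlap (limma adjusted p = 0.22). Lep against Int gave 0 calls by limma (beside 0.0265% and 0.132% of genes), while 1 was higher and 9 lower at p under 0.05 before adjustment, 0 by edgeR and 3 by DESeq2. Lep against BrM gave 0 calls by limma (beside 0.827% of genes, 0.344% higher and 0.483% lower), while 8 were higher and 3 lower at p under 0.05 before adjustment, 0 by edgeR and 4 by DESeq2.

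In BrM against Par 1 member fell, beside 0.106% of genes that fell and 0.344% that rose. ADAMTS15 had 1455 and 939.9 in Lep and 1252, 1080 and 1177 in BrM, against 2625, 2406 and 3301 in Par, without overlap. It fell in BrM (-1.24 ± 0.19, limma adjusted p = 0.041) and was not called in Lep (-1.23 ± 0.22, 0.082). The BrM call ended, with the same direction, when any 1 of BrM replicates 1 to 3 or Par replicates 1 and 2 was left out (adjusted p 0.064 to 0.23) or when only the 2 groups were fitted (0.071). The next 2 genes were named after their values were seen. MMP9 had 34.3, 1182 and 721.6 in BrM against 19.1, 53.4 and 79.2 in Par, so BrM replicate 1 lay within Par and the other two far above it (limma adjusted p = 0.28). MMP3 had 2184 and 1577 in Lep against 155.2, 1709 and 207 in Par, and Par replicate 2 alone reached the Lep range.

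In Int against Par 2 members rose and 0 fell, beside 4.33% and 2.61% of genes (6.94% in all), and the members' median was 0.33 (all genes 0.02). They were the procollagen N-proteinase ADAMTS14, at 69.5 and 58.5 in Int and 5.04, 9.04 and 1.62 in Par (3.58 ± 0.64, limma adjusted p = 0.018), and ADAM28, at 46.8 and 56.5 in Int and 9.07, 6.58 and 8.09 in Par (2.57 ± 0.52, 0.024), both named after their values were seen. DESeq2 called 10 members and leaving out Par replicate 1 gave 11, while leaving out either Int library gave 0. ADAM8 had 21210 and 20910 in Int against 6135, 8330 and 13330 in Par, without overlap, at a limma adjusted p of 0.05. ADAM17, the sheddase of TNF and EGFR ligands, had 5686 and 5873 in Int against 3953, 2329 and 1433 in Par (limma adjusted p = 0.057). In the Int libraries the length correlation was 0.45 and 0.43, and its part in these values was not tested beyond the length-corrected fit.

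The TIMPs of MDA-MB-231 were called in no comparison. TIMP1 had 7205 and 12000 in Lep, 8645, 13940 and 12650 in BrM and 7650 and 8431 in Int, against 4565, 12780 and 14940 in Par. TIMP2 stayed between 23860 and 28520 over all libraries. TIMP3 had 26430 and 7499 in Lep, 23500, 17010 and 19240 in BrM and 41650 and 48040 in Int, against 24600, 18140 and 17180 in Par. Both Int libraries were above all others (Int against Par, limma adjusted p = 0.092). TIMP4 had 94.97 and 38.9 in Lep, 21.4, 44.7 and 45.7 in BrM and 89.7 and 105.1 in Int, against 64.5, 90.4 and 85.7 in Par. Of 29 tested genes of the pericellular proteolysis list, 4 rose in Int (LRP1, PLAT, RHBDF2 and ST14), beside 4.33% of all genes. RHBDF2, which escorts ADAM17 to the cell surface, was 3600 ± 171.8 in Int and 1181 ± 175 in Par (1.62 ± 0.19, limma adjusted p = 0.0054).

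In PC9 Lep against Par 5 of 39 tested members rose and 7 fell, beside 6.65% and 8.49% of 14475 genes. In BrM 6 rose and 6 fell, beside 4.62% and 3.1% (7.72% in all), and in Int 7 rose and 7 fell, beside 6.24% and 7.71%. After removal of the length trend, 38 members with a known length were tested. Of these, 5 rose and 7 fell in Lep, 6 rose and 6 fell in BrM, and 5 rose and 5 fell in Int. Beside them 1556, 992 and 1414 of 12824 genes were called in these comparisons. The members' median was -0.07 in Lep (all genes 0.02), 0.28 in BrM (-0.03) and -0.07 in Int (0.02). Between Lep and Int no member was called by limma (beside 0.608% of genes, 0.228% higher and 0.38% lower), while 5 were higher and 5 lower at p under 0.05 before adjustment, and edgeR and DESeq2 each called 1.

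TIMP3 had 1544 and 1641 in PC9 Lep, 1426, 1453 and 1357 in BrM and 1165 and 1114 in Int, against 4322, 4561 and 4530 in Par. Every derivative library was well below every Par library, and TIMP3 fell, with log2 fold changes of -1.49 in Lep, -1.66 in BrM and -1.97 in Int (limma adjusted p = 6.8e-09, 3.3e-10 and 1.9e-09). TIMP1 had 1887 and 1497 in Lep, 1331 to 1516 in BrM and 1737 and 1718 in Int, against 1274 to 1353 in Par. TIMP2 had 4255 and 4503 in Lep, 5920 to 6434 in BrM and 4524 and 4263 in Int, against 4512 to 4753 in Par. TIMP4 had 175.3 and 147.1 in Lep, 111.7 to 134.9 in BrM and 125.8 and 101.6 in Int, against 132.4 to 173.4 in Par. None of these 3 inhibitors was called in a derivative against Par.

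ADAM8 rose in every PC9 derivative. ADAM8 had 1080 and 1752 in Lep, 1542, 1612 and 1698 in BrM and 1532 and 1421 in Int, against 592.4, 618 and 599.6 in Par, with no overlap with Par. The log2 fold change was 1.19 ± 0.14 in Lep, 1.42 ± 0.13 in BrM and 1.29 ± 0.14 in Int (limma adjusted p = 1.1e-05, 2.5e-06 and 5.7e-06), and without Lep replicate 2 the Lep value was 0.84, under the fold threshold. ADAM12 had 300 and 158.8 in Lep, 682.5, 634.5 and 627.2 in BrM and 242.8 and 238.5 in Int, against 661, 637.6 and 669.9 in Par. It fell in Lep (-1.58 ± 0.18, limma adjusted p = 8.4e-06) and Int (-1.44 ± 0.18, 1.9e-05), but after removal of the length trend the Int change was -0.97, and the call ended.

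ADAM9, ADAM17 and ADAM10 of PC9 were lower in every Lep and Int library than in every BrM and Par library, while ADAM8 was higher there than in Par. ADAM9 had 2764 and 3113 in Lep, 8633, 7947 and 7102 in BrM and 3336 and 4181 in Int, against 7264, 7473 and 6966 in Par. Lep lay below all other libraries, and ADAM9 was -1.3 ± 0.1 against Par (limma adjusted p = 2.5e-07) and -1.42 ± 0.1 against BrM (7.9e-08), both called. ADAM17 had 2110 and 2185 in Lep, 3692 to 3843 in BrM and 2134 and 2013 in Int, against 3998 to 4108 in Par. ADAM10, which sheds Notch and cadherins, had 1424 and 1528 in Lep, 2327 to 2722 in BrM and 1515 and 1431 in Int, against 2331 to 2553 in Par. Neither overlapped Par in Lep or Int, yet the changes in Lep (-0.92 ± 0.05 and -0.74 ± 0.08) were under the fold threshold. The differences in ADAM9, ADAM17 and ADAM10 divide the stages as the length correlation does. After removal of the length trend ADAM9 in Lep against Par was at -1.24 and still called. Length-corrected values of ADAM17 and ADAM10, whose transcripts are longer, are not given here.

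ADAM23 fell in all 3 PC9 derivatives. ADAM23 had 68.2 and 27.6 in Lep, 15.3, 26.3 and 24.1 in BrM and 38.4 and 44.2 in Int, against 110.4, 120.9 and 109.4 in Par. The log2 fold change was -1.36 ± 0.32 in Lep, -2.36 ± 0.29 in BrM and -1.44 ± 0.32 in Int (limma adjusted p = 0.0025, 3.7e-05 and 0.0018), and without Lep replicate 2 the Lep value was -0.73, under the fold threshold. ADAMTS12 had 45.5 and 1.67 in Lep, 41.2, 32.8 and 31.8 in BrM and 23.3 and 22.9 in Int, against 184, 156.3 and 176.9 in Par. It was called lower in Lep (-3.96 ± 0.77), BrM (-2.26 ± 0.69) and Int (-2.84 ± 0.77), with limma adjusted p of 6e-04, 0.017 and 0.0059. With Lep replicate 1 left out the Lep value was -6.02, with Lep replicate 2 left out it was -1.90, and leaving out BrM replicate 2 or 3 or Par replicate 1 or 3 ended the BrM call (adjusted p 0.05 to 0.058).

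ADAM19 was highest in the BrM cells of PC9. ADAM19 had 291.2 and 485.6 in Lep, 1678, 1604 and 1702 in BrM and 415.7 and 378.6 in Int, against 466, 533.8 and 518.6 in Par. BrM lay above every other library, at 1.71 ± 0.14 over Par (limma adjusted p = 1e-06), and Lep against BrM was -2.14 ± 0.16 (1.2e-07). ADAMTS6, named after its values were seen, had 61.2, 88.01 and 70.3 in BrM against 2.45, 1.22 and 2.701 in Par. Compared with BrM, 4 PC9 members were higher and 10 lower in Lep, beside 7.83% and 10.8% of genes (18.6% in all). With the length trend removed, 6 were higher and 8 lower, beside 2066 of 12824 genes called. The values that follow are without that correction unless stated. Lower in Lep were ADAMTS16, at 204.7 ± 75.6 in Lep and 545.6 ± 27.1 in BrM (-1.46 ± 0.17, limma adjusted p = 6.8e-06), and ADAM22, at 154 ± 14.5 and 387.8 ± 35.1 (-1.33 ± 0.12, 9.1e-07). MMP14 was 182.4 ± 8.59 in Lep and 367.6 ± 24.4 in BrM (-1.01 ± 0.1). After removal of the length trend ADAM22 was at -0.76 and MMP14 at -0.96, and both calls ended.

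The MMPs that rose in PC9 Lep were MMP17, MMP19 and MMP28, all under 100 on average. MMP19, named after its values were seen, had 60.9 and 50.99 in Lep and 18.2 and 18.9 in Int, against 4.91, 6.11 and 8.103 in Par. MMP15, a membrane-type MMP and the most abundant of the family in PC9, averaged 2488 ± 79.3 in Lep, 3096 ± 87.2 in BrM and 2765 ± 64.5 in Int, against 3080 ± 26.8 in Par, and was not called against Par.

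**Figure D4:**
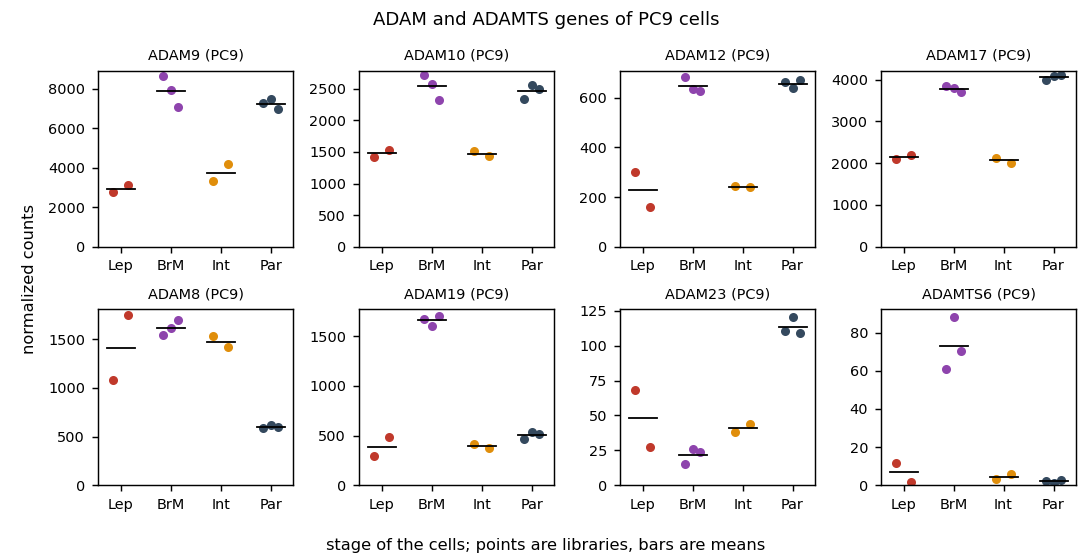
Normalized counts on linear axes from 0 in each PC9 library for 8 ADAM and ADAMTS genes, with points for libraries and bars for means of Lep, BrM, Int and Par. ADAM8 is higher and ADAM23 lower in every derivative library than in Par, and ADAM19 and ADAMTS6 are highest in BrM.

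Of the pericellular proteolysis list, 29 genes were tested in PC9. In Lep against Par 3 rose and 3 fell, beside 6.65% and 8.49% of all genes. In Int 2 rose and 2 fell, beside 6.24% and 7.71%. PLAT rose in Lep and Int, to 976.6 ± 482.8 and 1136 ± 271.1 against 183.3 ± 5.79 in Par. RECK fell in Lep, to 21.5 ± 7.96 against 67.1 ± 7.82 in Par.

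In LLC most tested MMP and ADAMTS genes fell in the brain derivative, and fewer in the leptomeningeal one. Against Par, 5 of 39 tested members rose and 12 fell in Lep, beside 8% and 12.3% of 13494 genes, with a median of -0.44 (all genes 0). In BrM 3 rose and 23 fell, beside 8.14% and 15.1%, with a median of -1.46 (all genes -0.05), and 4 rose and 21 fell under quantile normalization. In Int 6 rose and 4 fell, beside 6.4% and 5.08%, with a median of 0.21 (all genes 0). Of 13 tested MMPs, 5 fell in Lep, 11 in BrM and 1 in Int. Of 10 tested ADAMTS genes, 4 fell in Lep, 7 in BrM and 2 in Int.

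Mouse Mmp14 had 7128, 7433 and 10250 in LLC Lep, 7699, 8545 and 8057 in BrM and 28060 and 22070 in Int, against 16510, 16770 and 17250 in Par. Lep and BrM lay below Par without overlap, at -1.05 ± 0.14 and -1.06 ± 0.14 (limma adjusted p = 0.00013 and 0.00011), and without Lep replicate 1 or 2 the Lep change was -0.95 or -0.98, under the fold threshold. Mmp11, a stromelysin that furin activates inside the cell, had 327.2, 310.6 and 637.4 in Lep, 526.4, 515.3 and 564.7 in BrM and 2942 and 3129 in Int, against 1677, 1789 and 1887 in Par. It fell, with log2 fold changes of -2.15 in Lep and -1.73 in BrM (limma adjusted p = 1.6e-05 and 7.1e-05). Mmp19 had 175.1, 241.6 and 215.1 in Lep, 239.7, 211.8 and 227.2 in BrM and 989.9 and 468.7 in Int, against 1115, 1109 and 1210 in Par, and fell, with log2 fold changes of -2.45 in Lep and -2.33 in BrM (limma adjusted p = 9.4e-06 and 1.6e-05).

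Mmp28 fell in all 3 LLC derivatives. Mmp28 had 190.4, 102.2 and 283.2 in Lep, 45.7, 39.3 and 54.3 in BrM and 266.9 and 205.4 in Int, against 685.7, 697.7 and 795.4 in Par. The fold changes were -2.03 ± 0.31 in Lep, -3.95 ± 0.31 in BrM and -1.63 ± 0.34 in Int (limma adjusted p = 0.00023, 2.8e-06 and 0.005), and without Int replicate 2 the Int call ended (adjusted p = 0.06). Mmp23, a membrane-anchored MMP, fell to 19.4 ± 3.69 in Lep and 23.3 ± 4.93 in BrM, against 109.9 ± 18.7 in Par.

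The stromelysin and collagenase genes of LLC were low in BrM and uneven in Lep. Mmp3 had 2046, 12260 and 4175 in Lep, 678.6, 997.8 and 740.8 in BrM and 5805 and 2584 in Int, against 3369, 3385 and 3187 in Par. BrM fell below Par (-2.06 ± 0.49, limma adjusted p = 0.0037), while Lep libraries lay on both sides of Par. Mmp10 had 65.2, 516.3 and 108.2 in Lep and 8.88, 10.9 and 14.8 in BrM, against 123.1, 116.2 and 120.1 in Par. Mmp13 had 77.96, 518.9 and 25.3 in Lep and 24.1, 28.4 and 41.2 in BrM, against 251.8, 257.6 and 244.9 in Par. Both fell in BrM, with log2 fold changes of -3.29 and -3 (limma adjusted p = 0.00074 and 0.0052), and Lep replicate 2 was the highest Lep library for all 3 genes. Over BrM, Lep was higher in Mmp3 (2.57 ± 0.49) and Mmp10 (3.66 ± 0.6), and without Lep replicate 2 the values were 1.88 and 2.79.

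The gelatinase gene Mmp9 had 51.1, 305.5 and 119.5 in LLC Lep, 6.34, 0 and 9.88 in BrM and 737.8 and 385.4 in Int, against 14.9, 10.6 and 14.3 in Par. Lep and Int lay wholly above Par, and Mmp9 rose by 3.14 ± 0.79 in Lep and 5.24 ± 0.89 in Int (limma adjusted p = 0.0065 and 0.0015). Without Lep replicate 2 the Lep value was 2.49, and the call remained.

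Adam19 was nearly absent from LLC Lep cells. Adam19 had 3.83, 3.83 and 0.7028 in Lep, 206.7, 168.1 and 192.6 in BrM and 1152 and 1008 in Int, against 532.8, 454.8 and 430.4 in Par. The 4 stages did not overlap, and Adam19 fell, with log2 fold changes of -7.11 in Lep and -1.32 in BrM (limma adjusted p = 7.2e-08 and 0.0065). The call in Int (1.19 ± 0.39, limma adjusted p = 0.039) ended when any 1 of the Int or Par libraries was left out (adjusted p 0.074 to 0.18). Adam8 had 305.5, 209.6 and 342.3 in Lep, 484.5, 558.9 and 516.9 in BrM and 2145 and 2155 in Int, against 98.2, 90.95 and 109.4 in Par. It rose by 1.49 ± 0.19 in Lep, 2.38 ± 0.19 in BrM and 4.42 ± 0.21 in Int (limma adjusted p = 6.7e-05, 3.1e-06 and 2.2e-07), with no overlap with Par.

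Adam33 fell in all 3 LLC derivatives, to 11.7 ± 4.64 in Lep, 8.68 ± 3.83 in BrM and 13.01 ± 4.08 in Int, against 110.4 ± 29.4 in Par. The LLC sheddases Adam9, Adam10 and Adam17 were not called against Par. Adam9 had 5955 to 6739 in Lep, 4546 to 5949 in BrM and 10990 and 11420 in Int, against 9368 to 10240 in Par. Adam10 had 6964 to 8053 in Lep, 5596 to 7059 in BrM and 7931 and 6587 in Int, against 7878 to 8444 in Par. Adam17 had 4685 to 5457 in Lep, 5273 to 6035 in BrM and 7989 and 7179 in Int, against 6592 to 7323 in Par.

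Adamts3 and Adamts9 of LLC separated Lep from BrM, and Adamts14 did not. Adamts3 had 189.2, 187.9 and 186.2 in Lep, 0 in all 3 BrM libraries and 80.02 and 41.6 in Int, against 99.6, 108.9 and 91.5 in Par. At 3 reads per BrM library, Lep was at least 36.8-fold higher than BrM, and BrM at least 19.6-fold lower than Par. Adamts14 had 1788, 1425 and 2785 in Lep, 1585, 1358 and 1727 in BrM and 9067 and 6231 in Int, against 6282, 6268 and 6818 in Par, and fell, with log2 fold changes of -1.75 in Lep and -2.06 in BrM (limma adjusted p = 5.7e-05 and 2.1e-05). Adamts9 had 3 reads over the 3 Lep libraries, and the Par mean of 264.5 was 207 times the Lep mean, with a counting interval of 70.8 to 1000 (exact Poisson, 95%). It also fell in BrM, to 92.9 ± 11.1 (-1.49 ± 0.41, limma adjusted p = 0.0087), and was called lower in Int, at 94.65 ± 32.8. The Int call ended with no filter (limma adjusted p = 0.058) or with any 1 Par library left out (0.06 to 0.11). It also ended without Int replicate 1 or 2, where the Int change was -1.86 or -1.14 with 1 Int library left.

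Adamts7, which cuts cartilage oligomeric matrix protein, had 132.9, 351.5 and 176.4 in LLC Lep, 7.61, 4.37 and 6.58 in BrM and 891.2 and 462 in Int, against 83.9, 88.96 and 93.9 in Par. It rose in Int (2.84 ± 0.4, limma adjusted p = 0.00053), fell in BrM (-3.67 ± 0.36, 1.4e-05) and was called higher in Lep (1.18 ± 0.36, 0.018). The Lep call ended without Lep replicate 2 (0.78) or Par replicate 1 (1.14, adjusted p = 0.055). Adamts10 averaged 747.2 ± 17.9 in Lep against 1505 ± 130.4 in Par, and its change of -1.01 ± 0.16 was -0.94 with quantile normalization, under the fold threshold. Adamts4, an aggrecanase, rose in Int, to 452.7 ± 161.2 against 167.8 ± 24.1 in Par, and Adamts6 fell in BrM, to 92.8 ± 35.04 against 245 ± 39.3.

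**Figure D5:**
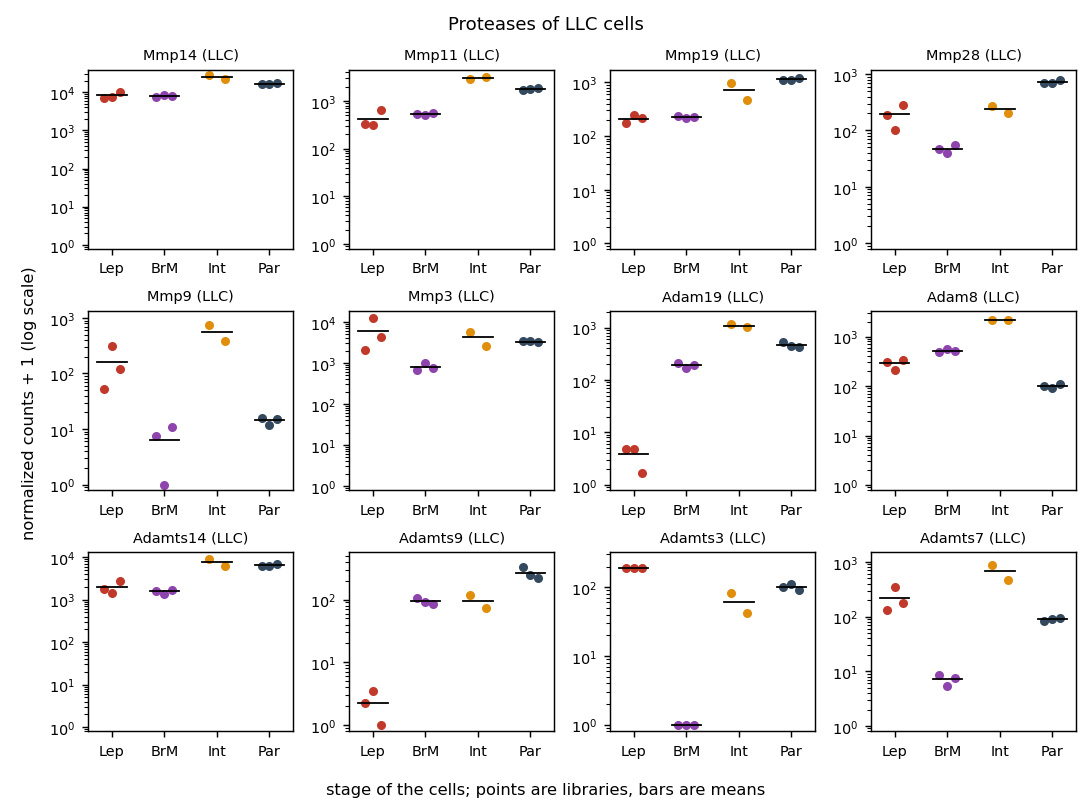
Normalized counts + 1 on log axes in each LLC library for 12 protease genes, with points for libraries and bars for means of Lep, BrM, Int and Par. Adam19 and Adamts9 are lowest in Lep, Adamts3 and Adamts7 are lowest in BrM, and Adam8 is above Par in every derivative library.

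The inhibitor Timp2 of LLC was not called against Par. Timp2 had 20060, 20500 and 15980 in Lep, 12640, 12930 and 12720 in BrM and 21060 and 19930 in Int, against 19950, 18640 and 17940 in Par, and BrM lay below all other libraries at -0.56 ± 0.12, under the fold threshold. Timp1 had 1499, 1387 and 1210 in Lep, 1622, 2799 and 1729 in BrM and 1052 and 1437 in Int, against 826.5, 842.5 and 750.2 in Par. It rose in BrM (1.3 ± 0.2, limma adjusted p = 0.00022). Timp3 was low, with 14.1, 26.8 and 1.41 in Lep, 2.54, 2.18 and 1.65 in BrM and 20.3 and 31.5 in Int, against 73.3, 59.8 and 52.3 in Par, and fell in Lep and BrM, with log2 fold changes of -2.63 and -4.33. Timp4 was below the filter.

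Between LLC derivatives, 3 members were higher and 13 lower in Lep than in Int, beside 8.47% and 14% of genes, and 12 were higher and 3 lower in Lep than in BrM, beside 11.1% and 6.85%. Compared with Int, Lep was lower in Adam8 (-2.94 ± 0.21), Mmp11 (-2.91 ± 0.25), Adamts14 (-1.97 ± 0.24) and Mmp14 (-1.61 ± 0.16). Of the pericellular proteolysis list 25 genes were tested in LLC. Against Par 4 rose and 5 fell in Lep, beside 8% and 12.3% of all genes. In BrM 1 rose and 6 fell, beside 8.14% and 15.1%, and in Int 4 rose and 0 fell, beside 6.4% and 5.08%. Plau, urokinase, fell in Lep and BrM, to 2718 ± 1588 and 3449 ± 61.5 against 14470 ± 710.4 in Par.

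Host cells in an LLC culture would also be mouse cells. The summed level of 7 fibroblast and pericyte markers was 15290 to 29200 in Lep, 65660 to 71880 in BrM and 29620 to 64780 in Int, against 111200 to 124900 in Par, with none of the 7 at 0 in every library of a stage. Most of it was Col3a1. Of the other 6, Col1a1, Dcn, Lum and Pdgfra averaged 13.01, 241.1, 0.66 and 1384 in Lep, all below the 55.2, 1701, 208.7 and 2368 of Par. The remaining pair was higher in Lep, with Pdgfrb at 683.8 against 128.1 and Col1a2 at 29.7 against 12.6. The part of these markers in the lower Mmp14, Mmp11, Mmp19 and Adamts14 of Lep and BrM was not tested. The 6 macrophage and microglia markers summed to 134.2 to 296.5 in Lep, 187.7 to 199.1 in BrM and 5230 to 5610 in Int, against 203.1 to 242.5 in Par. Most of that sum was Cd68, at 190.4 in Lep, 181.3 in BrM and 5372 in Int, against 221.9 in Par. In Lep, Csf1r averaged 16.9, Ptprc 10.6, Cx3cr1 7.14 and Itgam 6.39, against 0.22, 0.46, 1.73 and 0.47 in Par, while Aif1 was at 0.43 against 0.63. In Int, where Adam8 and Mmp9 were highest, Cx3cr1 was at 43.1 and Ptprc at 3.04, and Csf1r, Aif1 and Itgam were at 0.28, 0.56 and 1.11. The part of these markers in the Adam8 and Mmp9 of Lep and Int was not tested. For HCC1954, MDA-MB-231 and PC9 any host cell would come from the mouse, and the tables list human genes only.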

How the data were processed

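The deposited values are normalized counts: the authors counted reads with HTSeq 0.5.4 and scaled them with DESeq2, after quality control with FastQC 0.11.3, per the submitters' processing notes, which also name GRCh37 (hg19) and GRCm38 (mm10). No source used here names the aligner. Each deposited column is a signal of reads divided by 1 size factor: 100% of values were whole multiples of what 1 read is worth (tolerance 0.01), which recovered the reads and the depth of each library. Each of the 4 tables was normalized separately, so tests were made only within a table.

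Genes with a normalized count of at least 10 in at least 2 libraries were tested on log2(value + 1) with limma 3.58.1 in R 4.3.3, over all stages of a model together, with p-values adjusted over all genes tested. A gene was called at an adjusted p below 0.05 and a log2 fold change of at least 1 in size. Named genes were the TIMPs, the called members whose higher group averaged at least 100, and the 5 highest members of each model; genes outside this rule are named as chosen after their values were seen, or to describe a role or a neighbour. The members and lists were chosen with earlier results of these data known. Alternatives were edgeR 4.0.16 and DESeq2 1.42.0 on the recovered reads, a pseudocount of 5, no filter, quantile normalization, only the 2 groups compared, a replicate block, a length correction and leaving out each library. The fit was tested on simulated data. Lengths are those of the longest GENCODE transcript, and promoters come from RefSeq. Counting intervals and limits of 3 reads cover counting error only; 3 reads equalled 1.31 to 6.55 normalized counts per library. One gene of the pericellular proteolysis list is counted with the list but not reported here by name.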

Additional observations from a re-analysis of the deposited data

Results flagged for a closer look

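Several members changed in opposite directions in the Lep cells of different models. The difference between models was not tested, since the tables were normalized separately. In Lep against Par the log2 fold change of ADAM19 was 2.87 in HCC1954 and that of Adam19 -7.11 in LLC. ADAM8 was at -2.16 in HCC1954 and 1.19 in PC9, and Adam8 was at 1.49 in LLC. ADAMTS9 was at 1.8 in HCC1954 and Adamts9 at -7.03 in LLC, where its Lep libraries held 3 reads in all, so that the fitted value depends on the pseudocount. MMP14 was at 1.3 in HCC1954 and Mmp14 at -1.05 in LLC. Only genes in which every Lep library lay on the stated side of every Par library of its model were listed here.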

How the results depend on the processing

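Of 167 named fold changes, 143 were called under every alternative, and of their 2178 alternative values 65 were not called in the same direction and 1 was reversed. The reversed value was MMP3 in HCC1954 Int against Par, at -0.04 without Int replicate 2 and 3.11 without Int replicate 1; the cause was not tested. The count of members called stayed within 1.5 times in 5 of 5 comparisons of HCC1954, 0 of 5 of MDA-MB-231, 4 of 5 of PC9 and 4 of 5 of LLC. In MDA-MB-231, Lep against Par gave 2 calls with DESeq2 and 0 to 1 when libraries were left out, against 0. Int against Par gave 4 with a pseudocount of 5, 4 with quantile normalization, 4 with edgeR, 10 with DESeq2, 5 with the length correction and 0 to 11 when libraries were left out, against 2. BrM against Par gave 6 with DESeq2, 2 with the replicate block, 0 with only the 2 groups and 0 to 6 when libraries were left out, against 1. Lep against Int gave 1 with a pseudocount of 5, 3 with DESeq2 and 0 to 2 when libraries were left out, and Lep against BrM gave 4 with DESeq2 and 1 with the replicate block, against 0 in both. In PC9, Lep against Int gave 1 with a pseudocount of 5, 1 with edgeR, 1 with DESeq2 and 0 to 3 when libraries were left out, against 0. In LLC, Int against Par gave 6 to 8 when libraries were left out, against 10. The cause of these shifts was not tested, except that leaving out a library leaves fewer samples.

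Not every pair of libraries with the same replicate number had a correlation of deviations over 0.1, so the numbers were not taken to pair the samples. Such correlations were -0.06 to 0.03 in HCC1954 (0 of 13 pairs over 0.1), -0.09 to 0.50 in MDA-MB-231 (4 of 13), -0.03 to 0.10 in PC9 (0 of 13) and -0.11 to 0.14 in LLC (4 of 15), beside -0.06 to 0.06, -0.43 to 0.42, -0.11 to 0.11 and -0.14 to 0.11 between libraries of different numbers. With the replicate block the members called in HCC1954 were 33 in Lep, 28 in BrM and 28 in Int against Par, against 33, 31 and 30 without it. The block ended 4 named calls: ADAM15 (0.99) and MMP3 (adjusted p 0.053) in HCC1954 Int against Par, ADAMTS17 (0.90) in HCC1954 Lep against Int, and Adam19 (adjusted p 0.074) in LLC Int against Par. The length correction was chosen after seeing the data and was run for the human models only.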
